A study of Homo sapiens with 3 samples.

Results

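The comparison is between 2 of the 3 arrays of the series, both from HEK293T cells given the same activator and a guide RNA without a listed human target. The sgTetO array comes from cells given dCas9VP160 and sgTetO, a guide to the TetO promoter. The sgTetOmut array comes from cells given dCas9VP160 and sgTetOmut, a mutated form of sgTetO that the labels list as having no target. The third array, from cells given dCas9VP160 and the sgIL1RN1~3 guides to the IL1RN promoter, is quoted only beside named genes. HEK293T is an established line from human embryonic kidney, transformed to express the large T antigen of SV40. dCas9VP160 is a Cas9 that no longer cuts DNA, joined to a virus-derived activation domain, and TetO is a bacterial operator used in inducible transgenes. All cells were transfected transiently with Fugene HD, so an array is an average over cells that took up the DNA and cells that did not, and fewer responding cells cannot be told apart from less RNA per cell. There was 1 array for each guide, and the labels do not say how many cultures stood behind it. No difference below has a replicate check or a p-value. The members compared were 11963 genes, from the 19070 of 22277 probe sets that carry 1 gene symbol.

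By gene lists drawn up with earlier results of these data known, the 2 guides were separated by interferon genes almost alone. Among genes of at least median level, 30 (0.502%) were lower by 2-fold or more with sgTetO, 29 of them on interferon lists, and 0 (0%) were higher. With no minimum level, 49 (0.41%) were lower, 43 of them on those lists, and 2 (0.0167%) were higher. Outside those lists and at the median level or above, LAMP3 was the lowest gene with sgTetO, followed by the complement receptor C5AR1. The metallothioneins were lower by smaller amounts. CRCP, on 1 of its 2 probe sets, was the highest at that level. Ribosomal, splicing, cell cycle, chaperone, metabolic and chromatin genes had list medians within 0.1 log2 units of 0.

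Type I interferons signal through a cell surface receptor and JAK kinases to transcription factors that bind the interferon-stimulated response element in the promoters of antiviral genes. Cells of many types make interferon when sensors meet foreign nucleic acid, and HEK293T cells are known to sense some kinds of nucleic acid poorly. Metallothioneins are small cysteine-rich proteins that bind zinc and copper. Their promoters hold metal response elements, which the zinc-sensing factor MTF1 binds, and they are also known to respond to glucocorticoids, oxidants and cytokines.

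The promoters of 3 genes are shown because they carry these elements beside genes that differed between the arrays. Each is the 250 bases before the gene's start in RefSeq, build GRCh38.p14, read on the plus strand. ISG15, an interferon-induced ubiquitin-like modifier, lies at chr1:1013247-1013496, MT2A at chr16:56608334-56608583 and MT1X at chr16:56682220-56682469, each window being upstream sequence and not transcribed from that start. Capitals mark matches to the interferon-stimulated response element in ISG15, searched as GAAA, any 2 bases and GAAA again, which has 2 overlapping matches, and to TGCACNC or TGCGCNC on either strand in MT2A, which has 7, and in MT1X, which has 4.
ISG15: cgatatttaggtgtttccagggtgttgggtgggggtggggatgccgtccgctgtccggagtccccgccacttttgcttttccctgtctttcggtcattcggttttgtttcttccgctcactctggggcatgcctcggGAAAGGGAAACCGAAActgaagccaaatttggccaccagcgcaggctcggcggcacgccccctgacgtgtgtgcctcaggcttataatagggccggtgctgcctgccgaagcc
MT2A: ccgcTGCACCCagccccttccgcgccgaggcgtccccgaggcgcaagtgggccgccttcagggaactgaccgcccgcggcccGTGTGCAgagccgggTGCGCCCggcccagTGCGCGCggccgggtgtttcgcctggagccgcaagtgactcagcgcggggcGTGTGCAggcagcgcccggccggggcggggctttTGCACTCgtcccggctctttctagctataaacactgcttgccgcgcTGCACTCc
MT1X: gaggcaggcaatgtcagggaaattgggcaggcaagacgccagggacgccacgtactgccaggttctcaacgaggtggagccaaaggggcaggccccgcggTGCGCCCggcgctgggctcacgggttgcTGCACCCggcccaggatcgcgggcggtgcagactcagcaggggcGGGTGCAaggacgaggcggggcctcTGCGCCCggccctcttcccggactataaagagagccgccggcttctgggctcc

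Searched on both strands, this response element was found in this window of 3.71% of the 27305 genes with a promoter in the table. It was found in 19 of the 25 measured interferon core genes that have a window, in 14 of 31 interferon-linked antiviral genes and in 7 of 16 class I antigen processing genes. None of the 8 genes with a window among the 15 genes lowest with sgTetO outside the interferon lists held it, nor did any of the 10 with a window among the 15 highest. LAMP3 and MT1HL1, both among the 15 lowest, had no window and were not searched. At a share of 3.71% over all genes, so few windows without a match do not set these genes apart. TGCACNC or TGCGCNC was found at least once in 28.5% of all genes and at least 4 times in 0.458%. Among genes measured at or above the median level it was found in 41.9%, in 4 of the 8 lowest genes with a window and in 3 of the 10 highest. MT1H had 8 matches, and C5AR1 had 1. A match is a description of the letters and not of binding.

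The deposited values are on a log2 scale, and a difference is always sgTetO minus sgTetOmut. A gene was counted when the mean of its 2 values reached 6.20, the median of all genes, which 5982 genes did, 71 of them on the 4 interferon lists and 5911 outside. Some genes did so only through their higher array. With sgTetO, OAS2 read 5.08, SP100 5.32 and RSAD2 6.00, and with sgTetOmut LPL read 6.06. Pearson's r between the arrays was 0.997 over all genes, which are not independent replicates. The 18 hybridization controls differed by -0.13 to 0.05. Probe sets for Bacillus transcripts, which human cells lack, reached 3.29 with sgTetOmut and 3.40 with sgTetO, and 77.8% and 76.0% of genes lay above that background. The 5 prime control sets of beta-actin and GAPDH differed by -0.13 and -0.18, their 3 prime sets by 0.00 and 0.04. With sgIL1RN1~3 the 5 prime sets stood higher, beta-actin at 8.43 against 7.61 and 7.48 and GAPDH at 9.83 against 9.17 and 8.99, and the part of this in the values of that array was not tested.

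**Figure D1:**
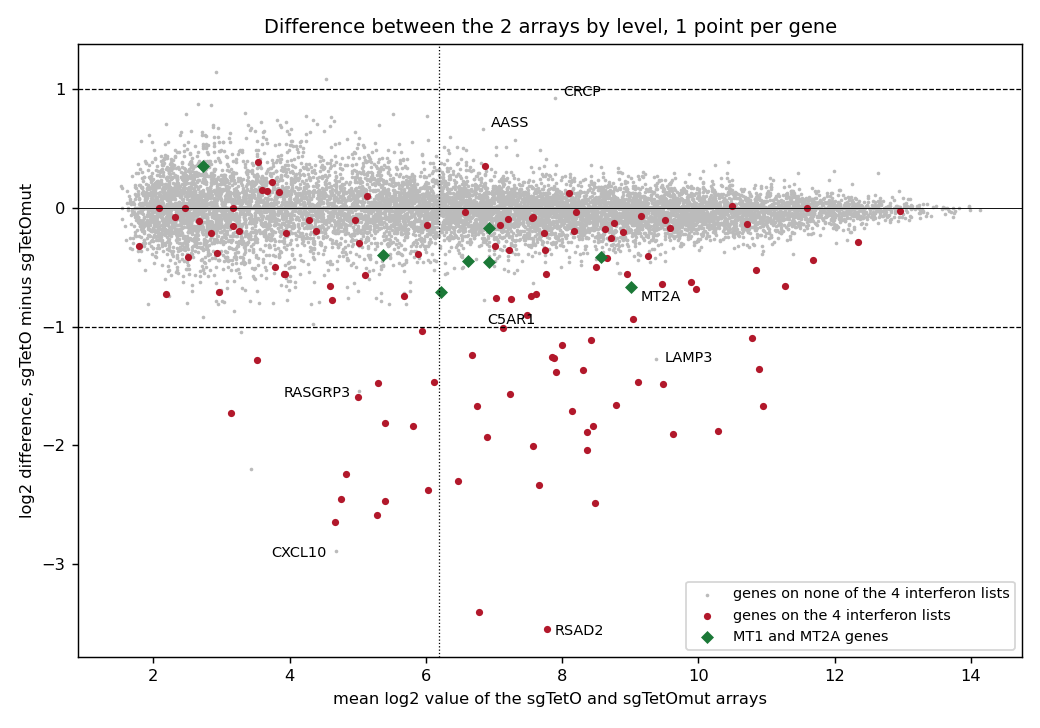
Difference between the sgTetO and sgTetOmut arrays (vertical axis, log2) against the mean of their log2 values (horizontal axis), 1 point per gene, with interferon list genes in red, MT1 and MT2A genes as green diamonds and all others in grey. Dashed lines mark 2-fold and the dotted line the median level; to the right of it, the points beyond the lower dashed line are red except LAMP3, and none lies beyond the upper one.

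At 1.5-fold, 44 of the 5982 genes (0.736%) were lower and 3 (0.0502%) higher with sgTetO. The interferon lists held 29 of the 30 genes past 2-fold, against 71 of the 5982 genes. These lists were drawn up with earlier results of these data known, so that share only describes the arrays. Counted by probe set at their own median level, 38 of 9535 (0.399%) were past 2-fold. The lists differed in depth. The interferon core held antiviral effectors, and also the RNA sensors RIGI and IFIH1 and the regulators IRF9 and USP18. It had a median difference of -1.75 over 20 genes, 18 of them 2-fold lower. Interferon-linked antiviral genes had a median of -0.76 over 23 genes, with 10 past 2-fold, and class I antigen processing -0.47 over 12 genes, with 1 past 2-fold, the peptide transporter TAP1. Genes of the interferon signalling core, which carry the signal from receptor to nucleus, had a median of -0.12 over 16 genes and none past 2-fold at this level. The median over all 5982 genes was -0.03. With no minimum level the 4 list medians were -1.63, -0.56, -0.38 and -0.11 in the same order, and the median over all genes was -0.01.

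RSAD2, the antiviral enzyme viperin, read 9.55 with sgTetOmut, 6.00 with sgTetO and 5.61 with sgIL1RN1~3, an 11.7-fold gap between the first pair. SP100, a nuclear body protein of the antiviral list, read 7.62, 5.32 and 5.24 in the same order. In both, sgTetOmut was the high array by more than 2 log2 units. The signalling list held differences in each direction: IRF2, a transcription factor of the pathway, was 7.39 with sgTetOmut and 7.04 with sgTetO, and TYK2, a receptor-bound kinase, 6.69 and 7.04.

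Outside the interferon lists, 1 of 5911 genes was 2-fold lower (0.0169%) and 0 were higher (0%). At 1.5-fold, 5 were lower (0.0846%) and 3 higher (0.0508%). At 0.4 log2 units, 48 were lower and 19 higher. LAMP3, a lysosomal membrane protein of mature dendritic cells that is also known as interferon-inducible, was the single gene past 2-fold. It read 10.02 with sgTetOmut, 8.74 with sgTetO and 8.66 with sgIL1RN1~3, 2.42-fold lower with sgTetO. It has 1 probe set, so no other set of the chip bears on it. C5AR1, the receptor for the complement fragment C5a, read 7.24, 6.46 and 6.44, which is 1.71-fold lower. For both genes sgTetOmut stood above the other arrays, which differed by less than 0.1. The differences of the 100 genes nearest to them in level, interferon list genes left out, had an SD of 0.18 for LAMP3 and 0.17 for C5AR1. Each 100 includes the gene itself, whose own difference widens that SD.

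The metallothioneins lay lower with sgTetO as a group. They were set apart as a group after their values had been seen. MT2A, which many cell types express, read 9.34 with sgTetOmut, 8.68 with sgTetO and 8.62 with sgIL1RN1~3, 1.58-fold lower with sgTetO. MT1HL1, listed as a metallothionein 1H-like gene, read 6.57, 5.86 and 5.92, which is 1.64-fold lower. All 9 MT1 and MT2A probe sets above background on both arrays were lower with sgTetO, by a median of -0.41 and a range from -0.71 to -0.09. They stand for 7 genes. On these sets the sgIL1RN1~3 array lay within 0.3 of sgTetO. The sgTetOmut array was the highest of the 3 in each, except in the second MT1F set, where sgIL1RN1~3 read 6.98.

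MT1X read 8.77 and 8.36 on one probe set and 8.56 and 8.29 on the other. MT1G read 7.16 and 6.70, and MT1H 6.85 and 6.40. MT1F had the smallest gaps, 7.01 and 6.84 on one set and 6.96 and 6.87 on the other. These paralogs are near-identical, and their sets carry the suffix that marks probes shared between transcripts, so the 9 sets are not 9 separate measurements. The brain metallothionein MT3 read 3.79 on both arrays. MT1E, below the median level, read 5.56 and 5.17. MT1M and the second sets of MT1G and MT1E were not above background on both arrays.

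**Figure D2:**
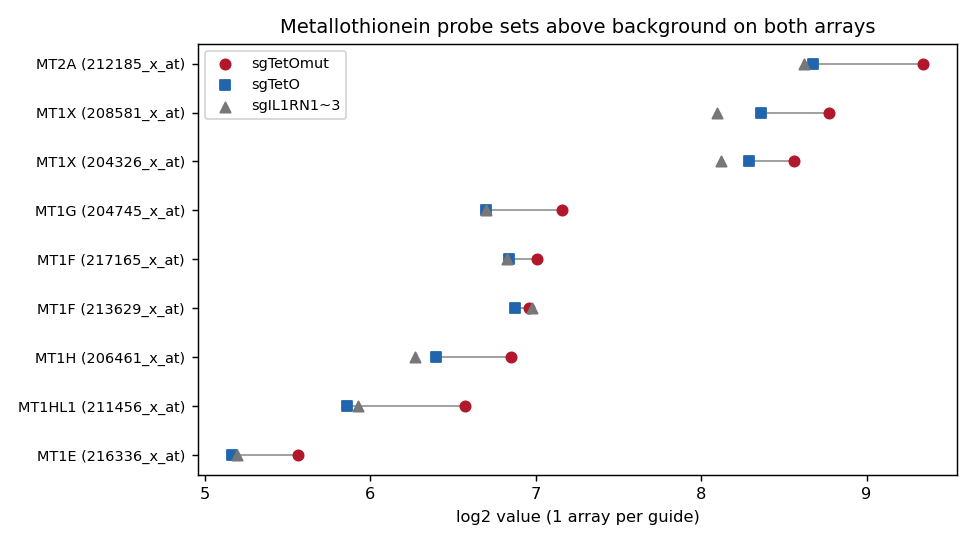
Log2 value (horizontal axis) of the 9 MT1 and MT2A probe sets above background, 1 line per set, with sgTetOmut as circles, sgTetO as squares and sgIL1RN1~3 as triangles, 1 array each. The circle lies to the right of the square in all 9 sets, with the widest gap in MT1HL1 (-0.71) and the narrowest in the second MT1F set (-0.09), and the triangle lies near the square.

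Without metallothioneins the metal and oxidative stress list held 19 genes with a median of -0.09, 14 of them below 0 and 17 within 0.25 log2 units. Of all genes outside the interferon lists, 57.7% lay below 0 and 93.0% within 0.25. MTF1, the zinc-sensing factor, read 5.09 with sgTetOmut and 5.08 with sgTetO, below the median level. SLC30A1, a zinc exporter and known MTF1 target, read 10.20 and 10.11. NQO1, an oxidant-induced reductase, read 6.85, 6.38 and 6.82 with sgTetOmut, sgTetO and sgIL1RN1~3, a difference of -0.47 that is as large as that of MT1G, but with the sgIL1RN1~3 array beside sgTetOmut. The thioredoxin gene TXN read 12.81 and 12.82.

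The 15 lowest genes outside the interferon lists differed by 0.51 to 1.28 log2 units in size. Besides LAMP3, C5AR1, MT1HL1 and MT2A they were KAT6A, ENC1, ETV5, SLCO5A1, KPNA6, CMTM6, ELF1, PCDH8, CEP70, ATXN7 and SNORA21. ELF1, an ETS-family transcription factor, read 7.48 with sgTetOmut, 6.94 with sgTetO and 6.99 with sgIL1RN1~3, so that sgTetOmut was the high array, as for LAMP3. The second ELF1 set, below the median level, did not show a gap of that size, at 4.07 with sgTetOmut and 3.95 with sgTetO. KAT6A, a histone acetyltransferase, read 7.89, 7.26 and 8.65, and KPNA6, a nuclear import receptor, 9.12, 8.57 and 9.62. For both the sgIL1RN1~3 array was the highest of the 3, unlike LAMP3. The second KAT6A set was at background, and the other KPNA6 sets differed by -0.61 and -0.02. Over the 15 genes, the sgIL1RN1~3 value was nearer to sgTetO in 8 and at or above sgTetOmut in 3. The 15 were picked by the gap between the other arrays, and no share over all genes was available, so these counts only describe them.

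The 15 highest genes differed by 0.45 to 0.93. CRCP, a component of RNA polymerase III that also couples to the calcitonin gene-related peptide receptor, read 7.43 with sgTetOmut, 8.36 with sgTetO and 7.72 with sgIL1RN1~3, 1.90-fold higher with sgTetO. AASS, a lysine-degrading enzyme, read 6.50, 7.17 and 7.03, and LPL, lipoprotein lipase, 6.06, 6.66 and 6.14. The second probe set of each did not show a gap of that size: it differed by 0.14 in CRCP, 0.10 in AASS and -0.31 in LPL, where the CRCP and LPL sets lay near background. The others were ANKRD11, TTC9, SSTR2, ZNF79, TPH1, ZNF814, CTBS, ZNF493, NFAT5, ATP8B1, ANKRD36B and CYP27B1. The sgIL1RN1~3 value was nearer to sgTetO in 3 of the 15 and at or below sgTetOmut in 8, again without a share over all genes beside it. For genes outside the interferon lists that differed by at least 0.4, 11 of 12 further probe sets at level lay on the same side, 5 of them by at least 50% of the size. Over all genes outside the interferon lists, 1246 of 2128 further sets lay on the same side. There, 1063 of 2128 were counted as reaching that size, but this includes every further set of a gene with a difference of 0, so it is too high. For the 2-fold interferon genes, 4 of 4 further sets lay on the same side, with 3 at that size.

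**Figure D3:**
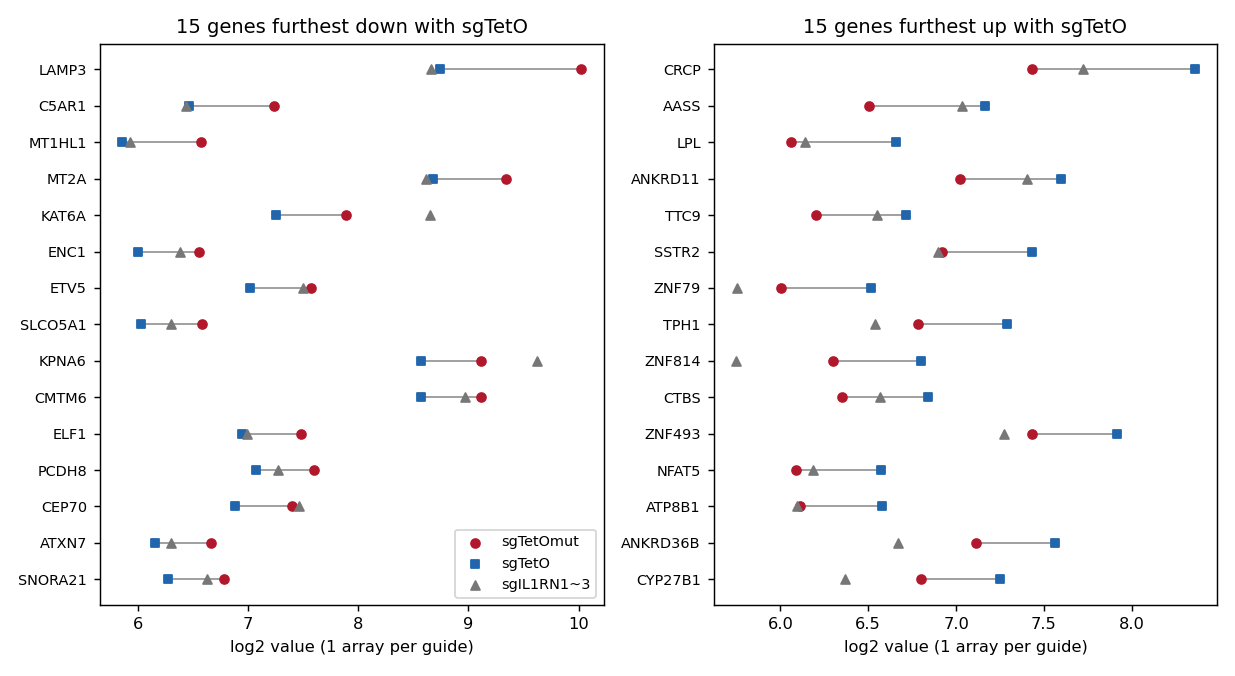
Log2 values (horizontal axis) of the 15 genes furthest down (left) and the 15 furthest up (right) with sgTetO, interferon lists left out, with sgTetOmut as circles, sgTetO as squares and sgIL1RN1~3 as triangles, 1 array each. Lines join sgTetOmut to sgTetO; the longest are LAMP3 (1.28) on the left and CRCP (0.93) on the right, and triangles fall at either end.

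Below the median level, 19 genes were 2-fold lower with sgTetO and 2 higher. Over all 11963 genes with no minimum level this makes 49 lower (0.41%) and 2 higher (0.0167%), and outside the interferon lists 6 lower (0.0507%) and 2 higher (0.0169%). The interferon lists held 14 of the 19. Among these was IFNB1, the gene of interferon beta itself and the 1 member of the signalling core past 2-fold, which read 5.98 with sgTetOmut, 3.53 with sgTetO and 3.40 with sgIL1RN1~3. PSMB9, an interferon-inducible proteasome subunit of the class I list, read 6.64, 4.17 and 4.45. In both, sgTetOmut was the high array, and IFNB1 on the other arrays was close to background. The remaining 5 were CXCL10, CXCL11, CCL5, RASGRP3 and CLDN6. These genes below the median level were named after their values were seen. CXCL10, a chemokine that draws T cells and is known as interferon-induced, read 6.12 with sgTetOmut and 3.23 with both sgTetO and sgIL1RN1~3. It was at background with sgTetO, so it was at least 6.58-fold lower. CXCL11, which shares its receptor, read 4.53, 2.33 and 2.48, at least 2.18-fold lower. CCL5, a further T cell chemokine, read 5.36, 3.83 and 3.88, a 2.88-fold gap, and its second set was at background with sgTetO. In all 3 chemokines sgTetOmut was the high array, and the other arrays lay together.

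RASGRP3, an exchange factor for Ras-type GTPases, read 5.79, 4.25 and 3.88, 2.91-fold lower with sgTetO. IL15, a cytokine for T and NK cells, read 4.72, 3.91 and 3.51. CLDN6, a tight junction protein, read 3.80, 2.76 and 3.28, and at background with sgTetO, so it was at least 1.32-fold lower. The 2 genes higher with sgTetO were NFIC, at 3.99, 5.08 and 3.99, and GABRR1, at 2.35, 3.50 and 2.50, the latter at background with sgTetOmut.

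The BTN3A butyrophilins, cell surface proteins through which gamma delta T cells recognise phosphoantigens, were also looked at after their values were seen. BTN3A1 read 9.73 with sgTetOmut, 9.28 with sgTetO and 9.12 with sgIL1RN1~3, BTN3A2 5.87, 5.06 and 5.32, and BTN3A3 7.19, 6.80 and 6.57. Of their 6 probe sets, 5 were above background on both arrays, and those 5 were lower with sgTetO, by 0.39 to 0.81 in size.

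The remaining classes stayed close. Of 39 lists outside the interferon group, 35 had at least 5 genes at level, and 34 of those 35 had a median within 0.1 of 0. Under other processing some of these medians passed 0.1, as given at the end. The medians ran from -0.12, for oxidative stress and metal response, to 0.06, for fibroblast and muscle markers. Of the 905 genes on these lists and on no interferon list, 848 (93.7%) lay within 0.25 log2 units, against 5495 of all 5911 genes outside the interferon lists (93.0%). MT2A and KAT6A were 1.5-fold lower, LPL was 1.5-fold higher, and 0 were 2-fold apart. Outside the interferon lists the SD of the difference was 0.16 among the 1183 genes of lowest level and 0.09 among the 1182 of highest level, so equality is better measured for abundant genes. Of the 35 medians, 31 were below 0, but after quantile scaling 15 were and after cyclic loess scaling 19, so the sign of a median of a few hundredths depends on the scaling.

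**Figure D4:**
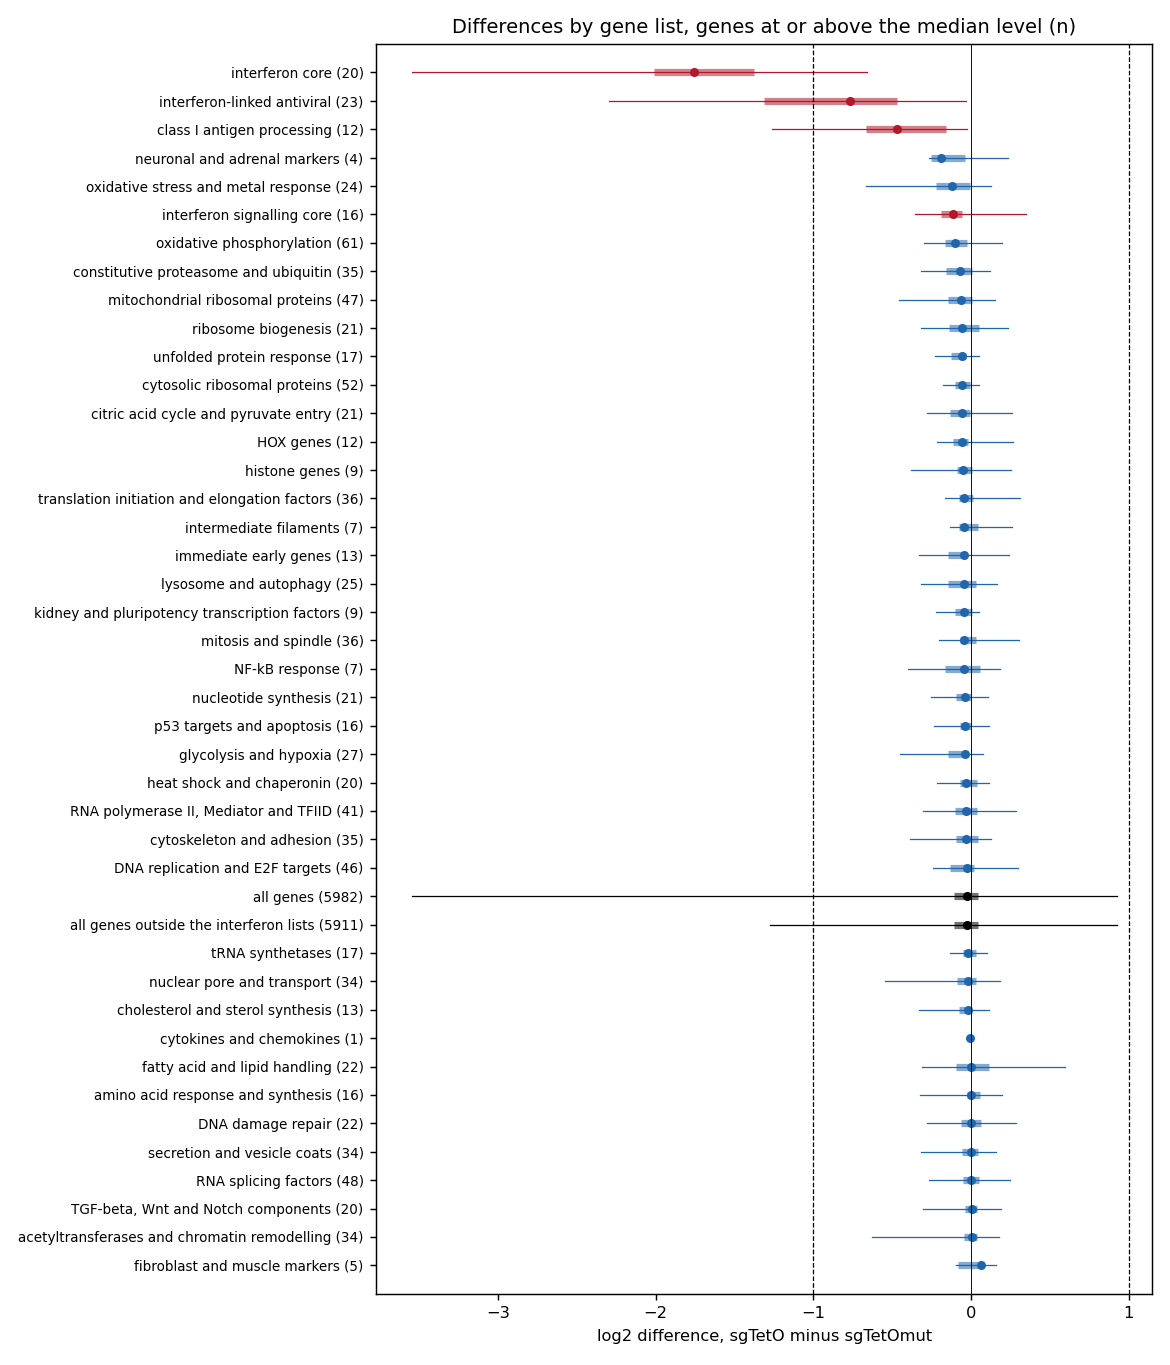
Median (dot), middle 50% (thick bar) and full range (thin line) of the log2 difference, sgTetO minus sgTetOmut, for each gene list, with the number of genes at or above the median level in brackets; interferon lists are red, other lists blue and all genes black, and dashed lines mark 2-fold. The red interferon core, antiviral and class I dots lie at -1.75, -0.76 and -0.47, and the blue dots lie near 0 apart from neuronal and adrenal markers at -0.19, which has 4 genes.

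Among signalling genes, the NF-kB response, which innate sensors also switch on, had a median of -0.04 over 7 genes, none of them 1.5-fold apart. IER3, an immediate NF-kB target, read 7.76 with sgTetOmut and 7.36 with sgTetO, and NFKBIA, the pathway's inhibitor, 6.72 and 6.48. Immediate early genes had a median of -0.05 over 13 genes: EGR1 read 10.98 and 11.22 and ATF3 8.75 and 8.42, in opposite directions. The growth factor VEGFA, the 1 cytokine at level, read 11.42 on both. Targets of p53 and apoptosis genes had a median of -0.04 over 16 genes, and TGF-beta, Wnt and Notch components 0.00 over 20.

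Stress classes were as close. Heat shock and chaperonin genes had a median of -0.03 over 20 genes, and the cytosolic chaperone HSP90AA1 read 13.37 and 13.31. The unfolded protein response had -0.06 over 17 genes, with the endoplasmic reticulum chaperone HSPA5 at 10.92 and 10.74. Amino acid response genes had 0.00 over 16 genes and DNA damage repair 0.00 over 22. In the former DDIT4, a stress-induced inhibitor of mTOR, read 10.20 and 9.87.

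Translation genes were abundant and tight. All 52 measured cytosolic ribosomal protein genes lay between -0.18 and 0.05, with a median of -0.06. Mitochondrial ribosomal proteins had -0.06 over 47 genes, with the largest gap in MRPS33, at 8.33 and 7.87. Among 36 translation factors EIF5B, which joins the ribosomal subunits, stood highest at 9.91 and 10.22. Of its other probe sets, 2 lay on the opposite side, at 9.60 and 9.44 and at 9.47 and 9.34. The remaining EIF5B sets lay on the same side, by 0.55, 0.50 and 0.46. Aminoacyl-tRNA synthetases had a median of -0.02 over 17 genes and ribosome biogenesis -0.06 over 21. Splicing factors had 0.00 over 48 genes, and SRSF1 read 13.28 and 13.31. RNA polymerase II, Mediator and TFIID genes, the machinery that an activation domain engages, had -0.03 over 41 genes. Acetyltransferases and remodellers had 0.01 over 34 genes with KAT6A the exception, and histone genes -0.05 over 9.

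Mitosis genes had a median of -0.04 over 36 genes and replication genes -0.03 over 46. The mitotic ubiquitin enzyme UBE2C had the largest gap of the former, 0.30, and the helicase subunit MCM4 the largest of the latter, also 0.30. Further MCM4 probe sets at level did not show that gap, reading 10.66 and 10.67, and 6.98 and 6.96. Oxidative phosphorylation was the metabolic class furthest from 0, with a median of -0.10 over 61 genes. It was -0.06 after quantile scaling and -0.06 after cyclic loess, and the ATP synthase subunit ATP5MC3 was its lowest gene at -0.30. Glycolysis and hypoxia had -0.04 over 27 genes, with the peptide hormone ADM lowest at -0.45, and sterol synthesis -0.02 over 13. Constitutive proteasome genes had -0.07 over 35, lysosome and autophagy genes -0.05 over 25, where LAMP3 was not listed, and cytoskeleton and adhesion genes -0.03 over 35.

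**Figure D5:**
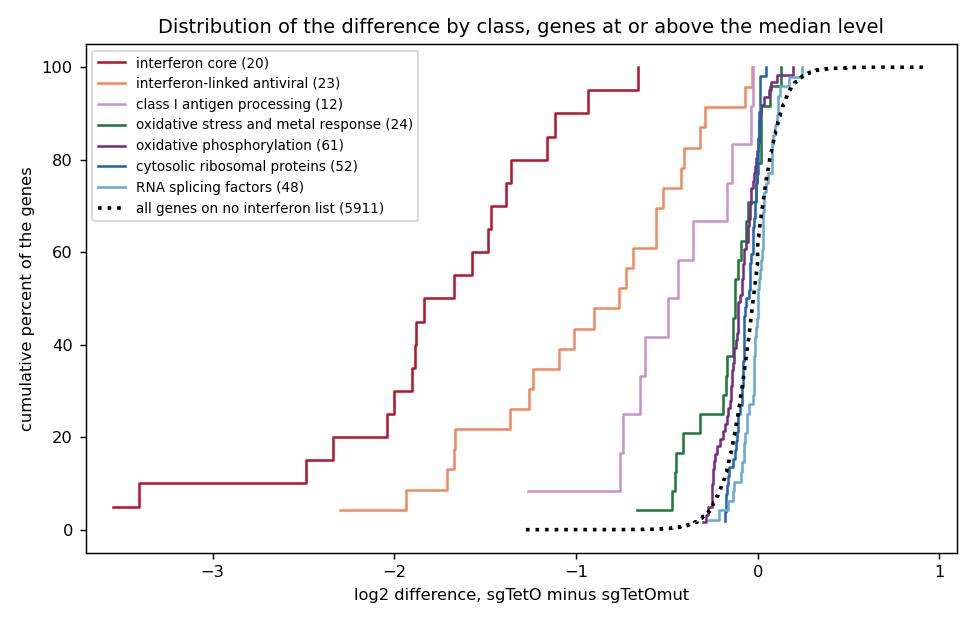
Cumulative percent of genes (vertical axis) by log2 difference, sgTetO minus sgTetOmut (horizontal axis), for 7 gene lists and for all 5911 genes on no interferon list (dotted black), with the number of genes in brackets. The curves of the interferon core, antiviral and class I lists lie to the left of the dotted curve, while ribosomal, splicing and oxidative phosphorylation curves rise near 0 and the metal and oxidative stress curve has a tail to the left.

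By symbol family, 27 families had at least 20 genes at level. Their medians ran from -0.07 in the TRIM family, which holds interferon list genes such as TRIM22, to 0.01 in the RBM family of RNA-binding proteins. HOX genes, which record body position, had a median of -0.06 over 12 genes, and kidney and pluripotency factors -0.04 over 9.

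The labelled cell line was checked against 7 markers. VIM, NEFL, NEFM, INA and KRT18 were at level, and PAX2 read 5.97 and 5.68 and KRT8 3.95 on both. Summed on the linear scale the 7 gave 2517 with sgTetOmut and 2557 with sgTetO. Of 14 measured blood and endothelial markers none was at level and 9 were at background on both arrays, their sum being 127 and 115. Of 15 epithelial and liver markers none was at level, with sums of 225 and 223. Fibroblast and muscle markers summed to 925 and 953. Neuronal and adrenal markers summed to 2707 and 2383, which is lower with sgTetO, and the part of this in the other differences was not tested. A linear sum rests mostly on the most abundant members, here UCHL1, at 10.49 and 10.23 in log2 units, and ENO2, at 9.79 and 9.66. Of the other 2 at level, GAP43 read 6.48 and 6.23 and SYT1, in the opposite direction, 6.82 and 7.06. Of the 17 measured, 8 were at background on both arrays.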

How the data were processed

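Total RNA of 3 HEK293T samples was measured on 1 array each. The authors deposited log2 values for 22277 probe sets, and the submitters' processing notes name affy. Its version, background correction, normalization and summary method were not given in the sources used here, and the log2 scale was read from the values. The 3 sorted columns lay within 0.104 of each other's mean, so a shift shared by all genes would not be seen. No array column of another series was present (0 columns).

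Gene symbols came from GEO's platform annotation: 19070 had 1 symbol, 1043 several and 2164 none. A gene stood by the set with the highest mean over both arrays and had to reach the median of all genes, as the mean of its 2 values. A value at or under the highest Bacillus set was treated as background, and "at least" folds were computed against it. With 1 array a guide, no test was made, and the number of arrays limits the precision. Named were genes 2-fold apart outside the interferon lists, the 15 highest and 15 lowest there, the members of each list with the largest differences and highest levels, and the extreme symbol families. The members, the 43 lists and the rules were chosen with earlier results of these data known, and lists support no independent claim. Alternatives were other scalings, levels, probe set rules, fold limits and 16 added to linear values. Promoters came from RefSeq, build GRCh38.p14. R 4.3.3 with limma 3.58.1 and Python 3.11.15 with numpy 2.4.6, pandas 2.3.3 and matplotlib 3.10.9 were used. The counting was tested on simulated data.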

Additional observations from a re-analysis of the deposited data

Results flagged for a closer look

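Probe sets that carry no single listed gene, which the comparison did not use, included 3 that were 2-fold or more lower with sgTetO. One, annotated to several genes, read 10.55 with sgTetOmut, 8.50 with sgTetO and 8.47 with sgIL1RN1~3, a difference of -2.05. A chip control set with no gene listed read 8.05, 6.38 and 6.86, a difference of -1.67. A further set with no gene listed read 8.89, 7.43 and 7.21, a difference of -1.46. Their cause was not tested.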

How the results depend on the processing

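No paired analysis was possible because each guide has 1 array, and no array could be left out. No result changed direction past 1.5-fold. Without a minimum level, 49 genes were 2-fold lower, 2 were higher and 8 outside the interferon lists were 2-fold apart. With both arrays above background, 1 was higher and 4 outside were apart. Counting every probe set gave 2 outside. At 1.5-fold, 3 were higher and 8 outside apart, and at 3-fold 16 were lower and 0 outside apart. With the interferon core list alone as the interferon genes, 12 outside were apart. Of the 8 named genes outside the lists at 1.5-fold, 4 were left with the mean of all probe sets and 4 with 16 added. KAT6A came to -0.27 and LPL to 0.14 at their smallest, with the mean of all probe sets, which brings in sets at or near background. LAMP3 ran from -1.28 to -1.21. The 4 genes left with that mean were LAMP3, C5AR1, MT1HL1 and MT2A. They have 1 probe set each, so that setting could not move them. The 9 metallothionein sets stayed lower under quantile scaling (median -0.38) and cyclic loess (median -0.39). List medians moved by over 0.1 only for the interferon core, antiviral, and cytokine and chemokine lists. Smaller moves still took some medians past 0.1. With the mean of all probe sets, sterol synthesis came to -0.11 and lysosome and autophagy to -0.12. Oxidative phosphorylation came to -0.11 with every probe set counted, and fibroblast and muscle markers to 0.11 after quantile scaling. That scaling brought oxidative stress and metal response within 0.1, at -0.08. Signal near background limits genes below the median level.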
